A study of Mus musculus with 35 samples.

Results

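The 9 transcription factors of the cortical excitatory lineage described here were *Neurog2*, *Eomes*, *Neurod1*, *Neurod2*, *Neurod6*, *Tbr1*, *Bcl11b*, *Fezf2* and *Bhlhe22*. They were listed by name, with no threshold on their values, but with earlier results of these data known. All 9 were among the 53465 genes of the bulk table. The samples came from mouse brain at E14.5. Bulk RNA-seq covered 12 libraries, from neural, mural and endothelial cells and microglia of 3 brains, wild type by the study's methods and given here in the order of their label numbers. Single cells were sorted into wells for mCEL-Seq2, a 3′ method that counts transcripts by molecular identifiers, from wild-type brain on plates 1 to 3 (11 libraries) and from *Mof* knockout brain on plates 4 to 6 (12 libraries). *Mof* is *Kat8*, which encodes a histone H4 lysine acetyltransferase. The knockout allele and any Cre driver are not given in the sources used here. Wild-type wells carry their sort gate, whereas knockout wells carry none. Mural cells were sorted by PDGFRβ, endothelial cells by PECAM1 and CD102, and microglia by CD45 together with CD11b (bulk) or CD41 (as the list of wells names it). The neural gate was defined by the absence of such surface markers and was taken from the brain, with no selection for cortex.

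In the embryonic cortex, radial glia in the ventricular zone give rise to intermediate progenitors and, through them, to glutamatergic projection neurons. NEUROG2, a proneural bHLH factor, acts in progenitors that leave the cell cycle, and EOMES (also called TBR2) marks intermediate progenitors. NEUROD1, NEUROD2 and NEUROD6 are bHLH factors that follow in new-born neurons. TBR1 and FEZF2 specify deep-layer projection neurons, BCL11B (CTIP2) marks subcerebral projection neurons but is also made in striatal neurons and other GABAergic cells, and BHLHE22 (BHLHB5) acts in postmitotic neurons. *Fezf2* is also transcribed in early cortical progenitors.

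On mm10 the genes lie at chr3:127633135-127635631 (*Neurog2*), chr9:118478212-118486132 (*Eomes*), chr2:79452521-79456751 (*Neurod1*), chr11:98325415-98329648 (*Neurod2*), chr6:55677822-55681263 (*Neurod6*), chr2:61802930-61814114 (*Tbr1*), chr12:107910403-108003602 (*Bcl11b*), chr14:12342094-12348189 (*Fezf2*) and chr3:18054174-18057517 (*Bhlhe22*). *Neurod1* overlaps *Cerkl* on its own strand and *Gm26755* on the other, and *Eomes* overlaps *Gm33460* on the other strand, so part of their reads could belong to these neighbours. RefSeq promoters (GRCm38.p6, 250 bases before to 50 after the start of transcription) were found for 8 of the 9 genes, *Bhlhe22* being the missing entry. The 4 that held the letters of the E-box, CANNTG, to which bHLH factors such as NEUROD and NEUROG proteins bind, are printed to show where these letters lie. Capitals mark each CANNTG. This motif reads alike on both strands, and 72.3% of all 32851 promoters of this length hold it.
Neurod1 (chr2:79456587-79456886, minus strand): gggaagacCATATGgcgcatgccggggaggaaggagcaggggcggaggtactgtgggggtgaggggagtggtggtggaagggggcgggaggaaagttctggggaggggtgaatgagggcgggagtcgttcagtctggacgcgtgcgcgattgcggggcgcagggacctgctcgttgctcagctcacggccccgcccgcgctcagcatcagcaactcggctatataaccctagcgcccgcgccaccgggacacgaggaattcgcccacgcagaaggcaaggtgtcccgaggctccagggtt
Neurod2 (chr11:98329596-98329895, minus strand): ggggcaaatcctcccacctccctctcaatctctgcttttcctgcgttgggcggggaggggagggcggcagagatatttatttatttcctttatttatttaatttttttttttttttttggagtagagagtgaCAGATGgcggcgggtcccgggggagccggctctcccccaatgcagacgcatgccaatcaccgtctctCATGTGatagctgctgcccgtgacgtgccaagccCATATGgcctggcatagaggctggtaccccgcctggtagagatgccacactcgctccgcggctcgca
Neurod6 (chr6:55681214-55681513, minus strand): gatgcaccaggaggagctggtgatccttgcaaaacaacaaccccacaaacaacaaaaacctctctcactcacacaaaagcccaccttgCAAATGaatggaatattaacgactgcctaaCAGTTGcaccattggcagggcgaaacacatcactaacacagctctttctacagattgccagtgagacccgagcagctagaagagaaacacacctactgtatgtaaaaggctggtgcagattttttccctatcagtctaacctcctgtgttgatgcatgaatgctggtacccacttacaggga
Tbr1 (chr2:61804203-61804502, plus strand): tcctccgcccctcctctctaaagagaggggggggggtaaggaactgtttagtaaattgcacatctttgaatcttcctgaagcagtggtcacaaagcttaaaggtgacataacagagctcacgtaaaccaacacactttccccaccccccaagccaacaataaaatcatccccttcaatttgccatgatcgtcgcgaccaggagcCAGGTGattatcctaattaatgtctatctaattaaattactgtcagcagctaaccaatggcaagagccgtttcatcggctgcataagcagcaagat

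The *Neurod2* promoter held 3 such words, *Neurod6* 2, and *Neurod1* and *Tbr1* 1 each. Among them was CATATG in *Neurod1* and *Neurod2*, a word found in 3.91% of all promoters, and CAGATG in *Neurod2* (17.2% of all promoters, counted with its reverse complement CATCTG). No CANNTG lay in the windows of *Neurog2*, *Eomes*, *Bcl11b* and *Fezf2*. These are matches of letters, and binding was not measured.

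Reads on genes ran from 17638358 to 98414914 per bulk library. Among single-cell wells with more than 1500 transcripts, 709 wild-type and 882 knockout wells were kept. The neural gate held 123 of them (56, 53 and 14 on plates 1, 2 and 3), with a median of 7717 transcripts. By a set of 12 neural markers that holds none of the 9 genes, 116 of the 123 wells were neural-like, 7 reached no class and none was mural-like, endothelial-like or microglia-like. Plate 3 was thin, with 14 neural-gate wells.

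To ask in which sorted population the 9 genes are transcribed, bulk libraries were compared first. All 9 were over 10-fold higher in neural cells than in the mean of the other 3 populations, against 13.8% of all genes tested. Since the genes were listed with earlier results of these data known, this count is no independent test. For every gene the lowest neural library lay above the highest of the 9 others. That gap ran from 6.92-fold for *Fezf2* to 29.6-fold for *Tbr1*. How many of all genes tested show such a gap was not counted. Neural libraries were prepared with a different kit (TruSeq) from the other populations (SMART-Seq v4 and Nextera XT), so kit and population cannot be told apart in this comparison. Fewer cells of a type and less RNA per cell cannot be told apart in bulk samples either.

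**Figure D1:**
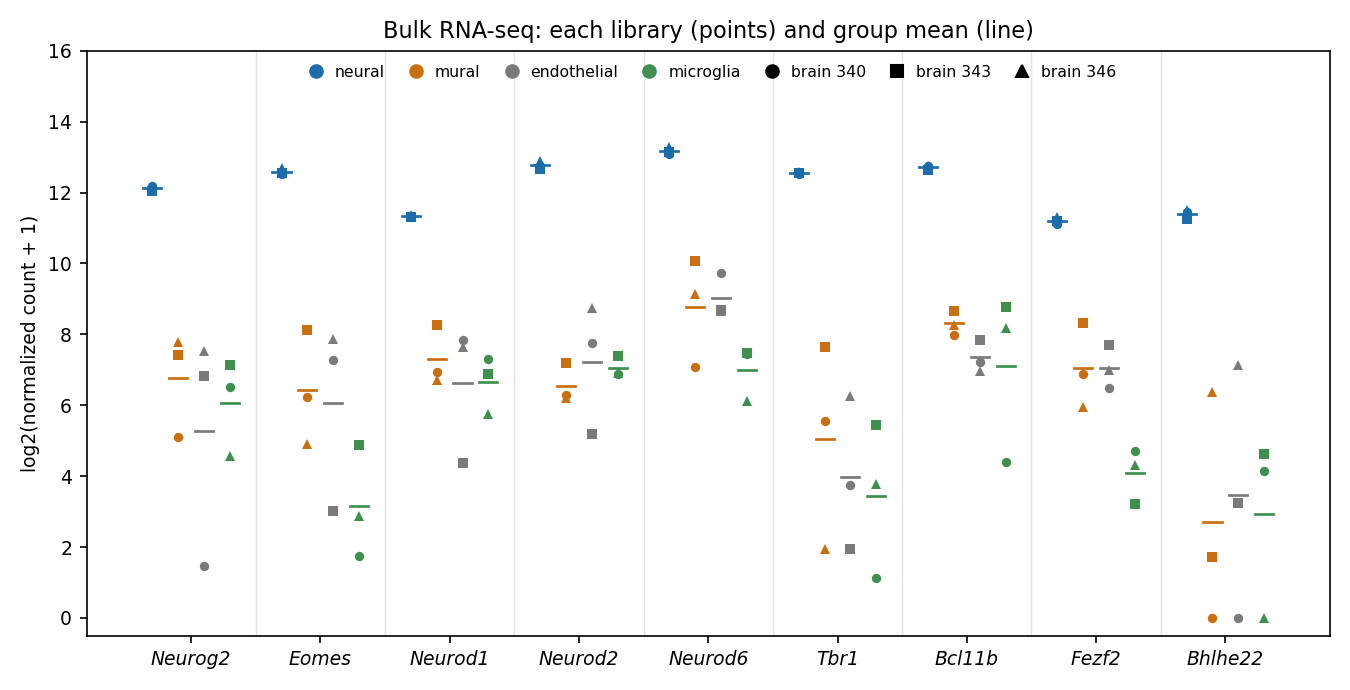
Log2(normalized count + 1) of the 9 genes in each of the 12 bulk libraries, with colour for population, symbol for brain and a short line for the mean of 3 libraries. The neural points sit above all 9 other libraries for every gene, and among the other populations microglia lie lowest for *Fezf2*.

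Of the progenitor genes, *Neurog2* had normalized counts of 4650, 4199 and 4460 in the neural libraries of the 3 brains. Elsewhere it ranged from 1.77 to 218.8, and the log2 difference was 6.08 ± 1.13 (SE, limma, adjusted p = 7.58e-04). *Eomes* reached 5845, 5955 and 6587 in neural cells and 2.38 to 276.2 elsewhere, a log2 difference of 7.37 ± 1.03 (adjusted p = 1.05e-04, limma). The neural libraries agreed within a narrow range, whereas the low values elsewhere spread widely.

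The bHLH genes of new-born neurons gave the same order of populations. *Neurod1* stood at 2549, 2542 and 2621 in neural cells and at 19.9 to 304.7 elsewhere. Its difference, 4.47 ± 0.68, was the smallest of the 9 (adjusted p = 1.89e-04, limma). *Neurod2* stood at 6881, 6503 and 7598, against 35.5 to 428.3, and differed by 5.82 ± 0.58. *Neurod6*, at 8663, 9134 and 9891, had the highest counts elsewhere too (68.0 to 1082), and differed by 4.90 ± 0.54. Endothelial and mural libraries supplied the 5 highest of those outside values.

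Among the genes of deep-layer and other projection neurons, *Tbr1* had the largest difference, 8.39 ± 1.25 (adjusted p = 1.64e-04, limma). Its neural counts were 5874, 5949 and 6175, and elsewhere it lay between 1.19 and 198.6. *Bcl11b* was measured at 6911, 6421 and 6928 in neural cells and at 20.2 to 432.8 in the others, a difference of 5.13 ± 0.71. *Fezf2* was measured at 2210, 2325 and 2515 and at 8.30 to 319.6, a difference of 5.13 ± 0.50. *Bhlhe22*, at 2774, 2454 and 2897, was listed at 0 in 1 mural, 1 endothelial and 1 microglial library and reached 140.3 in another endothelial library. Its difference was 8.37 ± 1.62 (adjusted p = 0.0010, limma).

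Levels were also set per kilobase of exon, to order the genes within the neural libraries. *Neurod6* was highest at 4293 ± 288 normalized counts per kb (SD, n = 3). *Neurod2* (2226 ± 177) and *Neurog2* (1992 ± 102) came next, and their libraries overlapped. *Eomes* followed at 1475 ± 96.4, then *Tbr1* at 1094 ± 28.5 and *Neurod1* at 942 ± 16.1, each without overlap with its neighbours. *Bcl11b* (833 ± 35.5), *Bhlhe22* (810 ± 68.3) and *Fezf2* (771 ± 50.4) were lowest and overlapped among themselves.

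The other genes of the lineage were taken from a list of 27. In bulk, 24 of the 27 were higher in neural cells (32.9% of all genes were), 17 of them over 10-fold, and 2 were lower (31.2% of all genes were). The list's median log2 difference was 4.47, against 0.08 for all genes tested. *Insm1*, a zinc-finger factor of basal progenitors, had the largest difference (8.06). *Mef2c*, a MADS-box factor that is also made in microglia and endothelium, was lower in neural cells by a log2 difference of -3.26, and *Btg2*, an antiproliferative gene induced by stress, by -2.07. Radial glia genes were higher for 7 of 8, 3 of them over 10-fold, and *Hes1*, a Notch target, was lower (-2.04). All 10 genes of the GABAergic lineage were over 10-fold higher, as were all 5 Cajal-Retzius genes and 5 of 6 genes of the diencephalon and midbrain. The neural libraries thus held RNA of GABAergic and non-cortical genes as well.

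Outside neural cells the 9 genes were low but above 0 in most libraries. Their summed count was 1.25 to 2.40% of the neural mean in microglia, 2.18 to 4.06% in endothelial cells and 1.82 to 6.15% in mural cells. The neural marker list, none of whose 12 genes was at 0 in any library, summed to 4.20 to 6.30% in microglia, 3.53 to 5.18% in endothelial cells and 16.8 to 30.3% in mural cells. In mural cells that sum was led by *Fabp7*, at 242 to 458% of its neural mean, and its neuronal genes ranged from *Elavl3* (0.68 to 2.37%) and *Dcx* (0.72 to 2.38%) to *Gap43* (8.57 to 20.8%) and *Mllt11* (12.6 to 22.3%). The part of RNA from neural cells in these low values was not tested.

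Between mural and endothelial cells none of the 9 genes differed at an adjusted p under 0.05 (limma), and 0 reached an unadjusted p under 0.05. Over all genes 27.8% differed. DESeq2 and edgeR on recovered reads also called 0, and 1 of the 9 had an unadjusted p under 0.05 by DESeq2 and 0 by edgeR. Of all genes DESeq2 called 2873 higher and 3234 lower in mural cells, and edgeR 2310 and 2425. Microglia had less *Fezf2* than both vascular populations, with normalized counts of 25.0, 8.30 and 18.9, against 88.6, 207.2 and 126.7 in endothelial and 117.1, 319.6 and 61.1 in mural cells. These groups did not overlap. The log2 difference was -2.98 ± 0.62 from endothelial cells (adjusted p = 0.0033, limma) and -2.98 ± 0.62 from mural cells (adjusted p = 0.0029, limma). *Neurod6* was also lower in microglia (173.5, 175.5 and 68.0) than in endothelial cells (855.8, 407.4 and 405.7), by -2.02 ± 0.66 (adjusted p = 0.038, limma). With the brain as a block its adjusted p was 0.055, and it was not called. Without the brain of the middle number its adjusted p was 0.074 and without that of the highest number 0.247 (limma). *Eomes* was not called against endothelial cells (-2.89, adjusted p = 0.109, limma), but was without the brain of the middle number (-5.26, adjusted p = 0.0024, limma). Thus 2 of 9 genes were lower against endothelial cells and 1 of 9 against mural cells, where 15.3% and 17.9% of all genes were lower. Higher in microglia were 0 of 9 in both comparisons, against 17.0% and 20.1% of all genes.

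The single cells allowed the same question in wells sorted by gate. Counts were summed per plate and gate and compared with edgeR. *Eomes* did not pass the filter on low counts. The 8 genes that did were all over 10-fold higher in the neural gate than in the mean of the other 3 gates, against 5.16% of genes tested. These genes had few transcripts in the other gates and passed the filter largely through their neural-gate sums. A gene admitted in this way is likely to be called, so this count against 5.16% is no independent support. The same limit may hold for the other gene lists tested in these sums. The log2 differences ran from 4.94 ± 0.34 for *Fezf2* to 7.02 ± 0.43 for *Neurod2*, with adjusted p from 8.52e-17 (*Neurod1*) to 1.09e-22 (*Bcl11b*). Since some sums hold 0 to 3 transcripts of a gene, the size of these differences depends on the prior count. The standard errors were derived from edgeR's F statistic, and DESeq2 gave 0.57 for *Fezf2* and 1.48 for *Neurod2*. Adjusted p by DESeq2 ran from 1.83e-04 (*Neurod1*) to 9.87e-21 (*Tbr1*). Over the 12 sums (50756 to 959426 transcripts), microglia of plate 3 and mural cells of plate 3 had 0 transcripts of all 9 genes.

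*Eomes* was left out because its 111 transcripts came from plates 1 and 2 (124.0 and 130.2 CPM, transcripts of the gene scaled to a fixed library total, in the neural gate), with 0 in 14 wells on plate 3, which allows a share of up to 21.4%. Without plate 3 all 9 genes were tested and all 9 were over 10-fold higher. From the longer list of lineage genes 22 of 27 could be tested, of which 17 were higher (22.5% of all genes were) and 11 over 10-fold. *Mef2c* (-2.61) and *Btg2* (-1.94) were again lower in the neural population (17.3% of all genes were). Of 7 GABAergic genes tested 6 were over 10-fold higher, led by *Dlx2* (6.47), and of 8 radial glia genes 5 were higher, led by *Pax6*, and 2 lower, *Hes1* (-2.01) and *Nes* (-0.76).

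Shares of wells describe how widely each gene was found, and none of the gates was sorted by these genes. In the neural gate *Bcl11b* was found in 75 of 123 wells (61.0%, exact 95% interval 51.8 to 69.6%). *Neurod2* was found in 51 (41.5%), *Fezf2* in 47 (38.2%), *Neurod6* in 43 (35.0%), *Neurod1* in 40 (32.5%), and *Tbr1* and *Bhlhe22* in 38 each (30.9%). The progenitor genes were the least widespread, *Neurog2* in 28 wells (22.8%, 15.7 to 31.2%) and *Eomes* in 20 (16.3%, 10.2 to 24.0%). In the other gates no gene was found in more than 6.19% of wells, at median depths of 6885 (mural), 6408 (endothelial) and 10761 transcripts (microglia). Intervals cover counting error only.

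**Figure D2:**
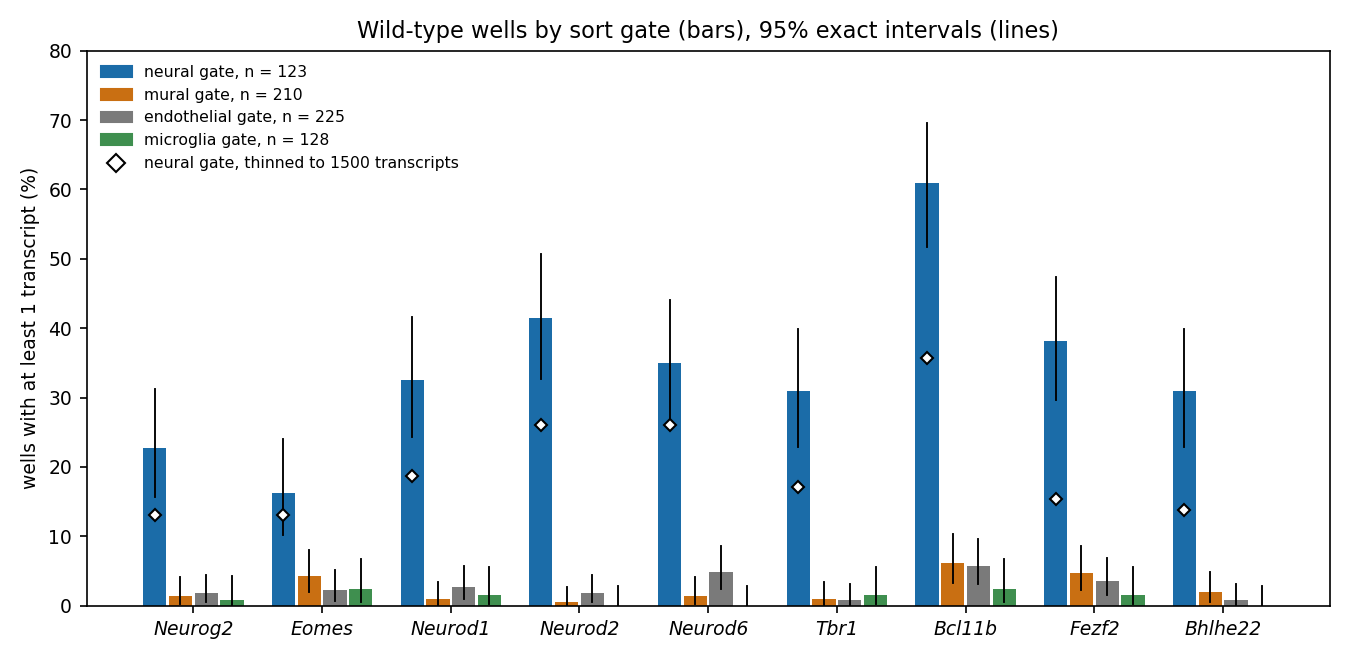
Percentage of wild-type wells with at least 1 transcript of each gene, by sort gate (bars, 123, 210, 225 and 128 wells), with exact 95% intervals as lines and diamonds for neural-gate wells after thinning to 1500 transcripts. *Bcl11b* has the tallest neural bar at 61.0% and *Eomes* the shortest at 16.3%, while the bars of the other gates stay at or under 6.19%.

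After each well was thinned to 1500 transcripts, the order changed at places. *Bcl11b* stayed first at 35.8%, followed by *Neurod2* and *Neurod6* at 26.0% each. *Neurod1* was at 18.7%, *Tbr1* at 17.1%, *Fezf2* at 15.4%, *Bhlhe22* at 13.8%, and *Neurog2* and *Eomes* at 13.0% each. *Fezf2* thus fell behind *Neurod6*, *Neurod1* and *Tbr1* in this draw. Thinning was a single random draw whose spread was not measured, so the order of genes with close shares is uncertain. Wells with *Neurod6* held 8.36 transcripts of it on average and wells with *Neurog2* 6.98, whereas wells with *Fezf2* held 3.51.

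Some wells of the other gates were neural-like by their markers. Of 210 mural-gate wells 13 were neural-like, as were 5 of 225 endothelial-gate and 0 of 128 microglia-gate wells. Among mural-gate wells 32 held any of the 9 genes and 9 of these were neural-like. In the endothelial gate 41 wells held any of them, 5 of these neural-like, and in the microglia gate 12, with 0 neural-like. The 1 mural-gate well and the 2 endothelial-gate wells with 4 or more of the genes were all neural-like. In the 194 mural-gate wells that were also mural-like, *Neurod1* and *Neurod2* were at 0, which allows a share of up to 1.55%, while *Bcl11b* was found in 8 and *Eomes* in 7 wells.

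The genes were not spread evenly over the neural gate. Of 123 wells 15 held none of the 9 genes, 59 held 1 to 3 and 49 held 4 to 8. No well held all 9. Wells with none were shallower (median 4986 transcripts) than wells with any other number of these genes, whose medians ran from 6511 (6 genes) to 10469 (4 genes). In the other gates 1 of 210, 2 of 225 and 0 of 128 wells held 4 or more.

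To see which genes share a well, the number of wells with both genes of a pair was set against the number given by their shares alone. The ratio was above 1 for 33 of 36 pairs, with a median of 1.42 and a range from 0.65 to 2.64. Wells are not replicates, and deeper wells show more genes of every kind, so these ratios are descriptions. On plates 1, 2 and 3 taken alone the median was 1.53, 1.43 and 1.5.

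2 sets stood out. *Neurog2* and *Eomes* were found together in 12 wells against 4.55 expected, that is 12 of 20 *Eomes* wells and 12 of 28 *Neurog2* wells (Pearson's r = 0.61 over 123 wells). The postmitotic set was *Neurod2*, *Neurod6*, *Tbr1* and *Bhlhe22*, whose promoters, where known, are printed above. *Neurod6* and *Tbr1* met in 33 wells against 13.3 expected, *Neurod2* and *Tbr1* in 35 against 15.8, and *Neurod2* and *Neurod6* in 37 against 17.8. That means that 92.1% of *Tbr1* wells held *Neurod2* and 86.8% held *Neurod6*. *Bhlhe22* met *Tbr1* in 25 wells against 11.7 expected.

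Between these sets the ratios ran from 0.65 to 1.57. *Neurog2* met *Tbr1* in 9 wells against 8.65 expected and *Neurod2* in 12 against 11.6. *Eomes* met *Bhlhe22* in 4 wells against 6.18, the lowest ratio (0.65). *Neurod1* overlapped with both sets, at 1.65 with *Neurog2*, 1.69 with *Eomes*, 1.93 with *Neurod6* and 1.75 with *Neurod2*. *Bcl11b* was below expectation with *Neurog2* (0.88) and *Eomes* (0.90) and above it with the NEUROD genes and *Tbr1* (1.29 to 1.38).

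**Figure D3:**
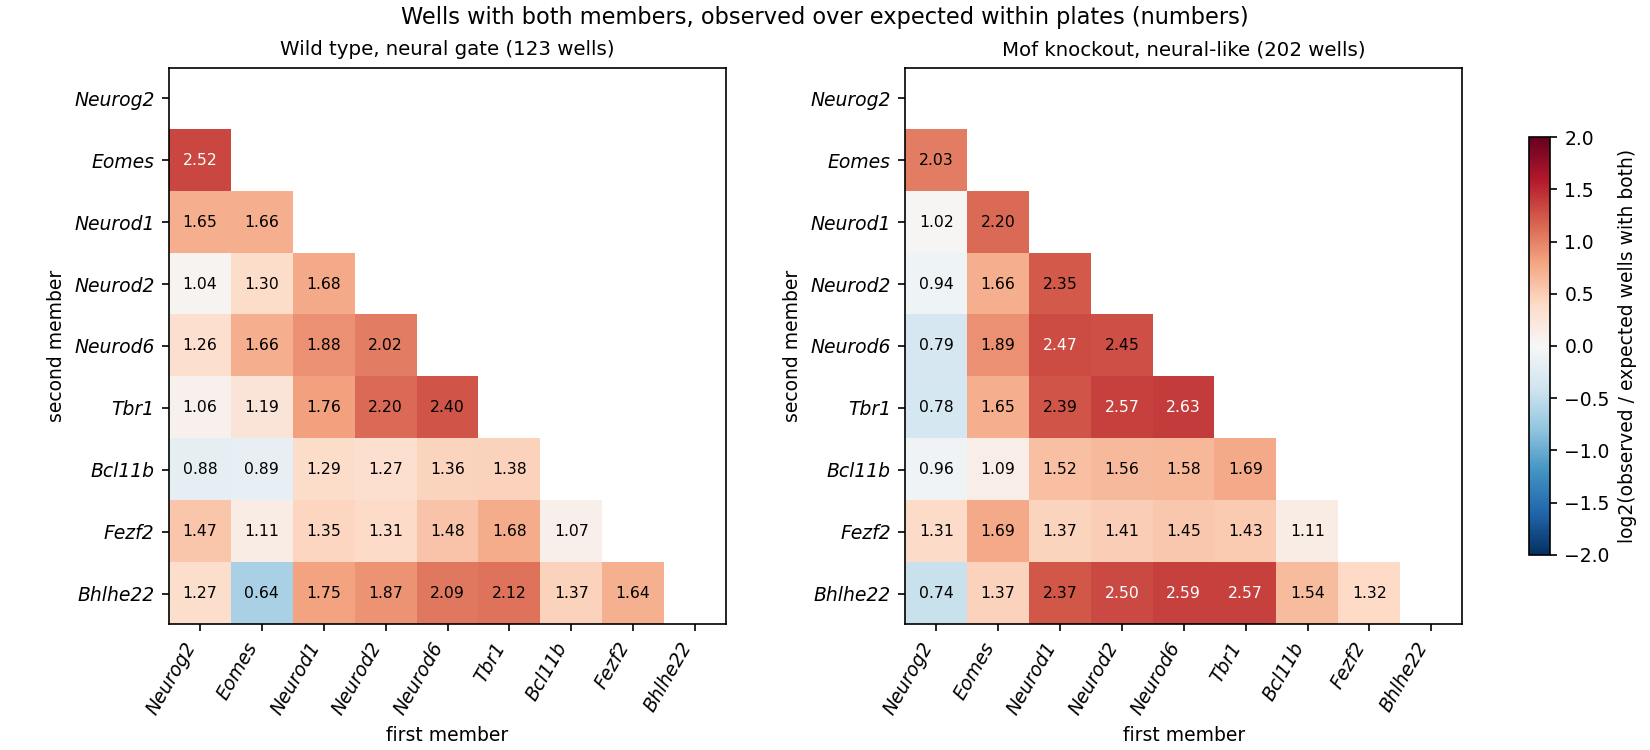
Number of wells with both genes of each pair divided by the number expected from the shares within each plate, for 123 wild-type neural-gate wells (left) and 202 *Mof* knockout neural-like wells (right), with colour for the log2 of the ratio. *Neurod2*, *Neurod6*, *Tbr1* and *Bhlhe22* form a red block in both panels, and *Neurog2* with *Eomes* a separate red cell.

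Other genes found in the same wells are given next, as a description. Of wells with *Neurog2*, 16 of 28 held *Pax6*, a radial glia factor, against 19 of 95 wells without it, and 71.4% held *Sox2*, another progenitor factor, against 51.6%. For *Eomes*, *Pax6* was found in 12 of 20 wells against 23 of 103, and *Sox2* in 11 of 20 against 58 of 103. *Hes5*, a Notch target of radial glia, was found in 2 of 28 *Neurog2* wells against 10 of 95 and in 1 of 20 *Eomes* wells against 11 of 103. *Dcx*, a microtubule-associated protein of migrating neurons, was found in 16 of 20 *Eomes* wells against 67 of 103 and in 18 of 28 *Neurog2* wells against 65 of 95. The neural marker *Stmn2* went the other way, in 9 of 20 *Eomes* wells against 67 of 103 and 11 of 28 *Neurog2* wells against 65 of 95. *Tubb3* was found in 15 of 20 *Eomes* wells against 75 of 103 and in 18 of 28 *Neurog2* wells against 72 of 95. A proliferation gene was found in 13 of 28 *Neurog2* wells against 29 of 95, and in 10 of 20 *Eomes* wells against 32 of 103. *Hes6*, a bHLH gene of differentiating progenitors, was found in 67.9% of *Neurog2* wells against 38.9% and in 65.0% of *Eomes* wells against 41.7%. *Nhlh1*, a bHLH gene of new-born neurons, was found in 40.0% of *Eomes*, 35.7% of *Neurog2* and 35.0% of *Neurod1* wells, against 12.6, 11.6 and 8.43% of wells without the gene. Wells with *Neurog2* were somewhat deeper (median 8483 transcripts) than wells without it (7639).

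Wells with the postmitotic genes held less *Sox2*, in 23.7% of *Tbr1* wells against 70.6% of the rest and in 29.4% of *Neurod2* wells against 75.0%. *Dcx* was found in 93.0% of *Neurod6* wells against 53.8%. *Zbtb18*, a transcriptional repressor, was found in 92.1% of *Bhlhe22* wells against 43.5%. *Slc17a6*, the vesicular glutamate transporter VGLUT2, was found in 47.4% of *Tbr1* wells against 14.1%. *Dlx2*, a GABAergic lineage factor, was found in 0 of 43 *Neurod6* wells and in 25.0% of the wells without *Neurod6*. *Dlx1* was found in 5 of 43 against 29 of 80 and any *Dlx* gene of the list in 9 of 43 against 35 of 80.

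**Figure D4:**
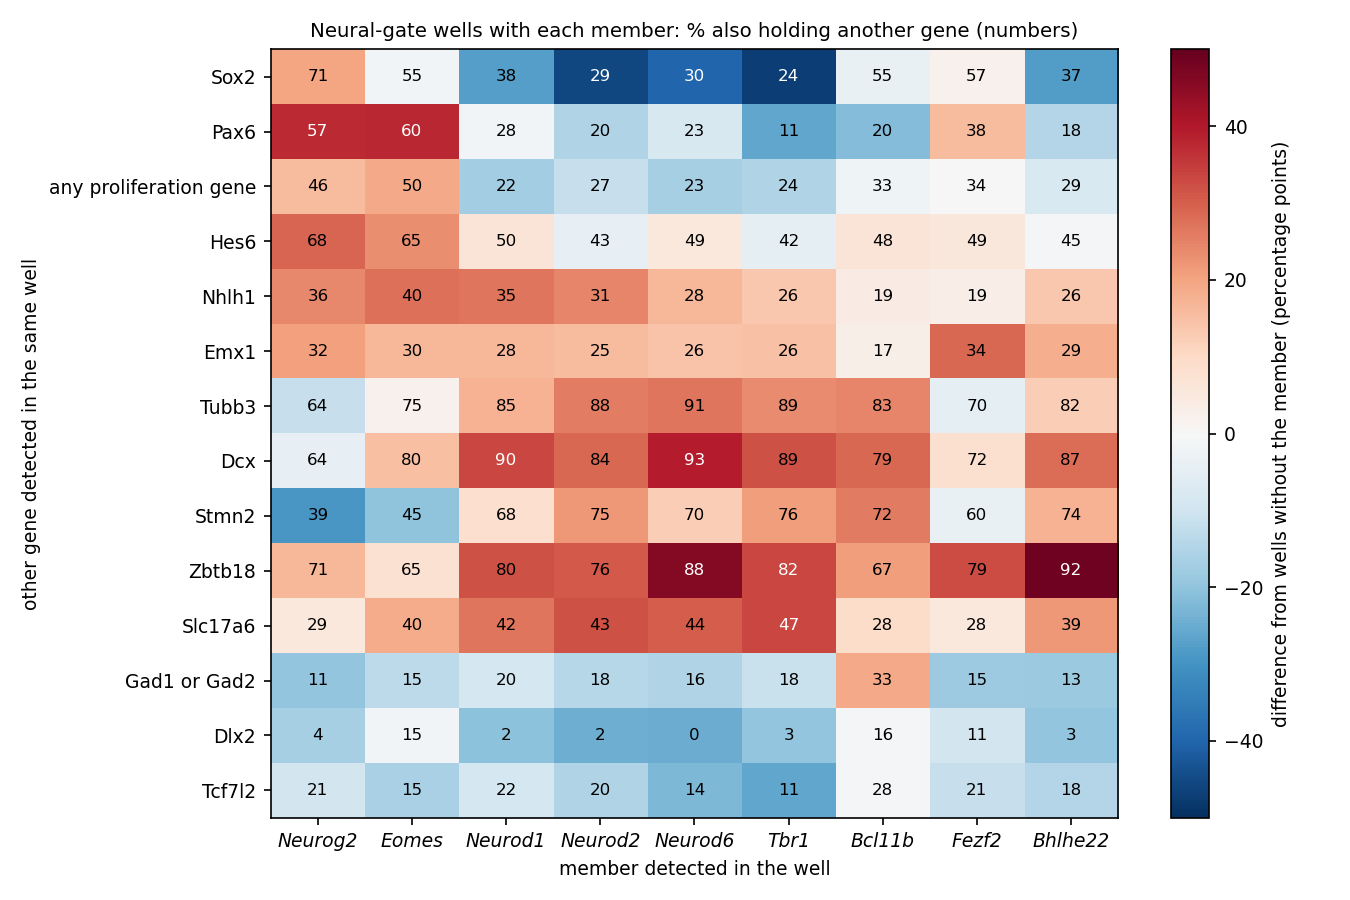
Percentage of neural-gate wells with each of the 9 genes (columns) that also held another gene (rows), as numbers, with colour for the difference in percentage points from wells without the member. *Pax6* is red under *Neurog2* (57) and *Eomes* (60), *Sox2* is blue under *Tbr1* (24) and *Neurod2* (29), and the row of *Gad1* or *Gad2* is red under *Bcl11b* (33) and blue under the other 8 genes.

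*Bcl11b* differed from the other 8 genes in its GABAergic partners. *Gad1* or *Gad2*, the GABA-synthesizing enzymes, were found in 33.3% of *Bcl11b* wells and 14.6% of wells without it. For each of the other 8 genes the share was lower in wells with the gene than in wells without it, 10.7% against 30.5% for *Neurog2* at the extreme. Of 75 *Bcl11b* wells 34 held *Neurod2*, *Neurod6* or *Tbr1* and no *Gad* gene, 15 held a *Gad* gene and none of the 3, 10 held both and 16 neither. The mean was 7.36 *Bcl11b* transcripts per well in the former group, 7.88 with *Gad* alone, 4.91 with both and 1.88 with neither. *Fezf2* wells held *Sox5*, a factor of deep-layer neurons, in 70.2% against 27.6%, and *Emx1*, a dorsal telencephalic factor, in 34.0% against 5.26%.

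Over the 123 wells, 7797 genes found in at least 10% of wells were ranked by their correlation with the mean level (log2 of transcripts per 10000 + 1) of *Neurod2*, *Neurod6*, *Tbr1* and *Bhlhe22*. The 5 most alike were *Zbtb18* (r = 0.65), *Prdm8* (0.64), *Fam49a* (0.64), *Ppp2r2b* (0.61) and *Nfib* (0.60). With the mean of *Neurog2* and *Eomes* they were *Dmrta2* (0.63), *Sstr2* (0.58), *Dhrs4* (0.58), *Rai14* (0.53) and *Zc3h12c* (0.53). *Zbtb18* kept values of 0.63, 0.66 and 0.59 within plates 1, 2 and 3, and *Prdm8* values of 0.76, 0.66 and 0.22. All points share the same libraries and vary in depth.

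In the *Mof* knockout wells *Kat8* was examined before the 9 genes. It was found in 33 of 337 wells on plate 4, 15 of 195 on plate 5 and 22 of 350 on plate 6, and in 22 of 123 wild-type neural-gate wells. Among neural-like wells it was found in 16 of 202 knockout and 29 of 148 wild-type wells, and its log2 difference between the plate sums was -1.13 ± 0.61 (adjusted p = 0.93, edgeR). A 3′ tag checks a deletion only where the deleted part holds it, and the allele was not known here. The label was therefore not tested by this gene.

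The knockout plates differed in makeup. By the marker lists plate 4 was mostly mural-like (272 of 337 wells), plate 6 mostly endothelial-like (292 of 350) and plate 5 held 79 microglia-like wells. Neural-like wells numbered 59, 107 and 36 on plates 4, 5 and 6, and 80, 56 and 12 on wild-type plates 1 to 3. Of these wells 13, 20 and 3 lay near the limit of the class (within 0.5 on the log2 scale) on plates 4, 5 and 6, against 4, 4 and 0 in the wild type. At least 2 of the neuronal genes *Stmn2*, *Dcx* and *Gap43* were found in 3 of the 59 neural-like wells on plate 4, in 52 of 107 on plate 5 and in 23 of 36 on plate 6. Few neural-like wells of plate 4 thus held these neuronal genes. Sort gate and genotype cannot be told apart for these plates.

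Genotypes were compared by sums of neural-like wells per plate, 3 plates against 3. None of the 9 genes differed at an adjusted p under 0.05 (edgeR). None reached an unadjusted p under 0.05 either, against 319 of all 7407 genes tested. DESeq2 called none of the 9 either. With no filter on low counts *Bhlhe22* and *Tbr1* had an unadjusted p of 0.031 and 0.037 (edgeR, adjusted p = 0.82 for both). In that run 1012 of 18845 genes had an unadjusted p under 0.05. Of 7407 genes tested 0% were called. The log2 differences ran from -0.90 ± 0.81 for *Bhlhe22* and -0.88 ± 1.07 for *Tbr1* to -0.01 ± 0.29 for *Fezf2*. Between them lay *Neurog2* (-0.59 ± 0.41), *Neurod1* (-0.46 ± 0.92), *Bcl11b* (-0.40 ± 0.66), *Neurod6* (-0.30 ± 1.07), *Neurod2* (-0.24 ± 0.99) and *Eomes* (-0.20 ± 1.0). The standard errors were between 0.81 and 1.07 for 6 of the 9 genes, so differences of that size were not detectable here. Larger ones could be missed too, and the smallest detectable difference was not computed. By DESeq2 the standard errors ran from 0.43 (*Fezf2*) to 1.80 (*Neurod6*). Which brains the plates came from is not given in the sources used here, and the spread between plates may be technical.

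**Figure D5:**
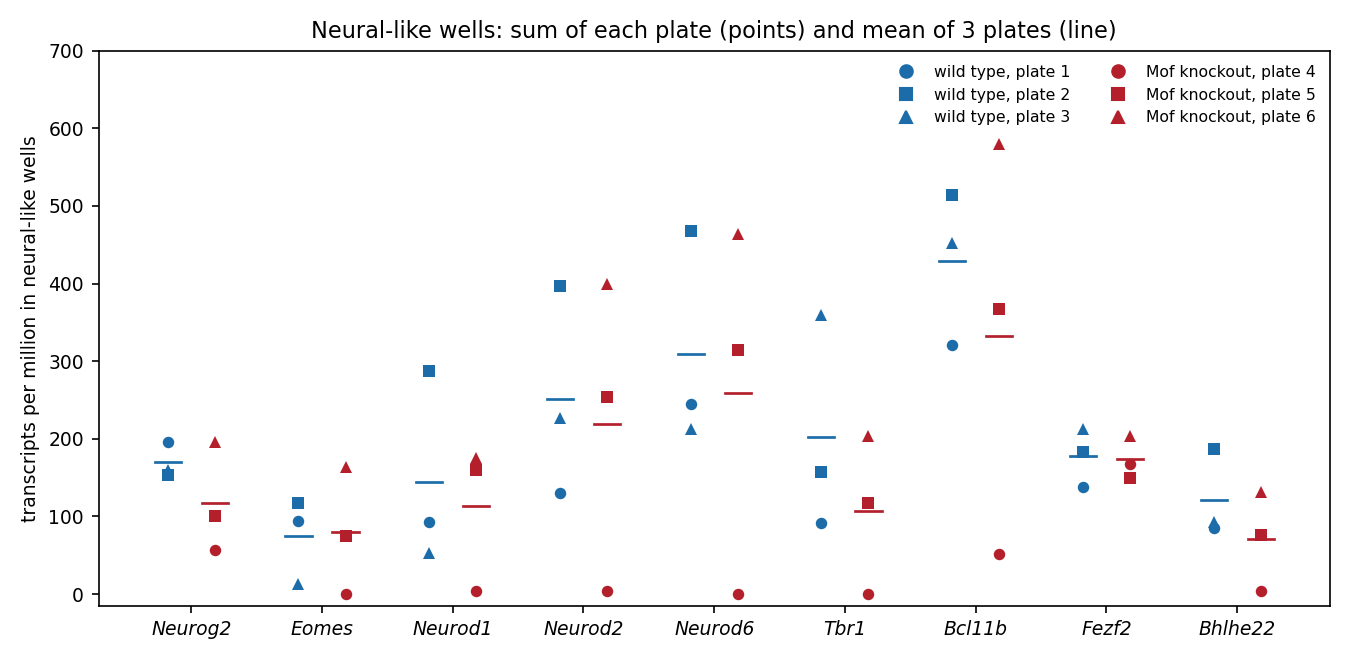
CPM of the 9 genes in the summed neural-like wells of each plate, wild type in blue and *Mof* knockout in red, with a line for the mean of 3 plates. Plate 4 (red circles) lies at or near 0 for *Eomes*, *Neurod1*, *Neurod2*, *Neurod6*, *Tbr1* and *Bhlhe22* but at 167.3 for *Fezf2*, and plates 5 and 6 lie among or near the wild-type plates.

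Plate 4 stood apart for most of the genes. *Neurod6* was at 245.2, 468.1 and 212.8 CPM on wild-type plates 1 to 3 and at 0, 314.9 and 463.8 on knockout plates 4 to 6. *Tbr1* was at 91.5, 157.3 and 359.3 in the wild type and at 0, 116.9 and 203.8 in the knockout. *Fezf2* was at 138.0, 182.5 and 212.9 in the wild type and at 167.3, 149.8 and 203.8 in the knockout. For these genes the wild-type and knockout plates overlapped, and *Fezf2* on plate 4 lay within the range of the wild-type plates. *Bcl11b* was at 321.2, 514.2 and 452.4 in the wild type and at 51.2, 367.2 and 579.9 in the knockout, and *Neurog2* at 195.6, 153.3 and 159.7 against 56.3, 99.9 and 195.9.

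On plate 4 the neural-like wells held *Fezf2* (26 of 59), *Bcl11b* (13) and *Neurog2* (9), but *Eomes*, *Neurod6* and *Tbr1* were found in 0 of 59 wells, which allows a share of wells with a transcript of up to 5.08% at this depth (3 counts of the total, counting error only). *Neurod1*, *Neurod2* and *Bhlhe22* were found in 2 wells each. A proliferation gene was found in 57.6% of these wells, in 52.3 and 36.1% on knockout plates 5 and 6, and in 42.5, 30.4 and 25.0% on wild-type plates 1 to 3. Mural markers on plate 4 summed to 484.5 CPM, against 66.5 to 176.7. Without plate 4 the log2 differences were 0.27 for *Neurod6* and -0.06 for *Tbr1*, and none of the 9 genes was called.

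Co-detection was also set against expectation in the knockout wells. With expectations set within each plate, the median ratio of 36 pairs was 1.57 in the 202 knockout neural-like wells and 1.41 in the 148 wild-type neural-like wells, and 31 and 32 pairs lay above 1. *Neurod6* and *Tbr1* had the highest knockout ratio, 2.63 (35 wells against 13.3). *Neurog2* and *Eomes* were at 2.03 (14 wells against 6.88), and *Neurog2* and *Bhlhe22* had the lowest, 0.74. The difference between genotypes was not tested. Wells with *Bcl11b* on the knockout plates split differently by plate. On plate 5, 27 of 55 held *Neurod2*, *Neurod6* or *Tbr1* without a *Gad* gene, on plate 6 19 of 42, and on plate 4 1 of 23. With 4 or more of the 9 genes were 0 of 59, 37 of 107 and 17 of 36 neural-like wells on plates 4, 5 and 6.

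The other gene lists gave no calls between genotypes. Among the 25 other lineage genes tested 0 passed in either direction, with a median log2 difference of 0.15 against 0.04 for all genes. All 8 radial glia genes had values above 0 (median 1.29) and all 8 GABAergic genes tested values below 0 (median -0.99), with 0 passing in either list. How many of all genes lay above or below 0 was not counted. On plate 4, 6.78% of neural-like wells held *Gad1* or *Gad2*, against 16.7 to 30.4% on the other plates. The part of this makeup in the 2 medians was not tested.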

How the data were processed

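Values deposited by the authors were used as given. The bulk table holds counts divided by size factors, a signal per Ensembl gene (annotated here with GENCODE vM21), and the deposited single-cell tables hold estimated counts of transcripts per well, read as identifiers corrected for repeats from their values, which lie just above whole numbers. The submitters' notes name mm10, BWA 0.6.2-r126, STAR, featureCounts and DESeq2, with no roles. Neural-like and other wells were assigned by marker lists (3 or more detected markers, highest mean), which hold none of the 9 genes. Wells with at most 1500 transcripts were left out.

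Bulk values were tested with limma 3.58.1 on log2(value + 1), for 19765 genes with a mean of at least 10. A gene was called at an adjusted p (Benjamini-Hochberg) under 0.05 and, for neural cells, a fold over 10. Whole reads were recovered for 100% of 123944 values of up to 100 reads (within 0.01), and edgeR 4.0.16 and DESeq2 1.42.0 (R 4.3.3) were run on them. For all 9 genes the log2 difference in neural cells was larger by limma than by edgeR or DESeq2. *Bhlhe22* was at 8.37 by limma, 6.67 by edgeR and 6.65 by DESeq2. Transcripts were rounded, summed per plate and tested with edgeR's quasi-likelihood test, with DESeq2 as alternative. Standard errors given with edgeR for these sums are the absolute log2 difference divided by the square root of the F statistic. Scripts were tested on simulated data. The genes named are the 9, the members of lists with the largest and smallest values, those called against the rest of their list, and the 5 genes most alike. The partner genes named in the wells were picked with their values known.

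The members and lists were chosen with earlier results of these data known. Same-numbered bulk libraries were taken to come from 1 brain. The correlation of their deviations from group means was -0.05 to 0.08, over 0.1 in 0 of 18 pairs. Well barcodes (192) are reused between libraries by design. No doublet caller was run, since wells were sorted as single cells. Some partner genes are not reported here.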

Additional observations from a re-analysis of the deposited data

How the results depend on the processing

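The 9 bulk calls in neural cells held under every alternative except DESeq2, which gave *Bhlhe22* no adjusted p (8 called). Over all genes 2728 were called, and 6510 by adjusted p alone. Lower in microglia than in endothelial cells were 2 genes, 1 with no minimum, 1 with the brain as a replicate block and 1 to 2 with 1 brain left out (1 without the brain of the highest number). *Neurod6* was the gene lost, also without the brain of the middle number, where *Eomes* was called in its place. DESeq2 gave 3. Against mural cells 1 gene was lower, 3 by edgeR, 3 by DESeq2, 2 with a floor of 3 reads and 1 to 2 with 1 brain left out. Of all 19765 genes tested 3531 were lower there, 3309 by edgeR, 3814 by DESeq2 and 3497 with the floor. With 1 brain left out it was 2597 to 2719 genes. Between mural and endothelial cells it was 0, and 0 to 1 with 1 brain left out (1 without the brain of the middle number, where the count over all genes went from 5496 to 3519).

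In the gate sums 8 of 8 genes held, 8 with the plate as a replicate block and 9 of 9 with no filter or without plate 3. All called genes numbered 479, 1029 with no filter, 2084 by adjusted p alone, and 288 to 623 with 1 plate left out. Of the calls on the 9 genes the blocks changed only that of *Neurod6* in microglia. Over all genes they gave 488 in the gate sums and 2724 in bulk neural cells. The median share of neural-gate wells, 32.5%, was 17.1% after thinning and 22.8% at 2 or more transcripts. The median co-detection ratio, 1.42, was 1.78 after thinning and 1.42 to 1.53 with 1 plate left out.

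Between genotypes 0 genes were called, 3 by DESeq2, 83 with no filter and 1 without knockout plate 5. Signs turned for uncalled genes, to 0.079 (*Eomes*, DESeq2), 0.13 (*Eomes*, 5 or more markers), 0.10 (*Neurod2*), 0.27 (*Neurod6*) and 0.21 (*Bcl11b*) in wells with 2 of *Stmn2*, *Dcx* and *Gap43*, and for *Fezf2* to 0.060 with no filter, 0.034 at 3000 transcripts and 0.091 at 5 or more markers. With 1 plate left out the log2 difference ran from -1.03 to 0.27 (*Eomes*), -0.96 to 0.50 (*Neurod1*), -0.87 to 0.35 (*Neurod2*), -0.88 to 0.27 (*Neurod6*), -0.95 to 0.13 (*Bcl11b*), -0.23 to 0.19 (*Fezf2*), -1.55 to -0.06 (*Tbr1*), -1.50 to -0.35 (*Bhlhe22*) and -1.04 to -0.29 (*Neurog2*, unadjusted p = 0.020 and adjusted p = 0.80 by edgeR without knockout plate 6). The extremes of the last 3 came without knockout plates 6 and 4. The causes were not tested. The floor of 3 reads, DESeq2 and quantile normalization for the non-neural pairs, and the wells with neuronal genes were chosen after seeing the data.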

Other observations

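Of the wild-type wells, 23 had none of the 4 gates, and 14 of them were neural-like, 8 mural-like and 1 of no class. Any of the 9 genes was found in 10 of the 23, 8 of these neural-like, and 4 or more in 2, both neural-like. In knockout wells with mural markers *Eomes* was found in 14 of 280, while *Neurod1* was found in 0, which allows a share of up to 1.07%. In wild-type mural-gate wells of their own class *Eomes* was found in 7 of 194. The part of free RNA in these low shares was not tested.

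Of 5 proliferation genes 1 was higher and 1 lower in neural cells in bulk, with a median log2 difference of -0.21, and in the gate sums 0 of 5 passed (edgeR).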
